A study of Mus musculus with 6 samples.

Results

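The 37 genes described here encode the proteins that shape, hold together, move and separate chromosomes in mitosis: the condensin complexes, topoisomerase II alpha and Ki-67, the cohesin ring with its regulators, the spindle proteins and the cytokinesis machinery. They were chosen by name, with earlier results of these data known, and all 37 were found once each among the 21959 genes of the deposited table. The libraries came from mouse cells that carry the label HL-1, the name of an atrial cardiomyocyte line, wild type and from a single batch by the labels. All 6 were taken through OGD/R, oxygen and glucose deprivation followed by reoxygenation, a culture model of ischemia and reperfusion, with hypoxia for 4 h in medium lacking glucose and reoxygenation for 24 h. OGD/R alone was given to 3 of them, and the other 3 also received phillyrin, a lignan glucoside of Forsythia, at 50 µg/mL for 8 h beforehand and 16 h together with OGD/R. No vehicle control was analysed here, so phillyrin and its solvent cannot be told apart. The comparison asks how these transcripts change when OGD/R is combined with phillyrin.

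Condensin is a ring-shaped motor that folds chromatin into loops and so compacts chromosomes for division, and cohesin is a related ring that holds sister chromatids together until anaphase and shapes loops in interphase. The spindle proteins nucleate, bundle and anchor the microtubules that pull the chromatids apart, and the cytokinesis proteins build the midzone and the contractile ring that divide the cell. Many of these genes are transcribed mainly late in the cell cycle, through a promoter element called the cell cycle genes homology region (CHR) that is bound by the DREAM and B-MYB/FOXM1 complexes, often beside CCAAT boxes bound by NF-Y. Cohesin's core, by contrast, is needed throughout the cycle, and ESCO2 acts in S phase, when cohesion is laid down.

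Library totals lay between 14761317 and 22123648 counts. CPM stands for counts per 1000000 counts of the library, scaled by TMM factors. Of 12 atrial cardiomyocyte markers 10 were below 0.5 CPM in every library, among them Myh6 with 0 counts in all 6. The exceptions were Tnnt2, which rose with phillyrin from a mean of 116 to 153 CPM, and Myl4, with means of 1.38 and 1.9 CPM. In OGD/R the skeletal muscle factor Myod1 averaged 83.2 CPM, beside 676, 305 and 64.2 CPM for Des, Chrna1 and Myf5. The remaining skeletal myoblast markers, Pax7, Mymk, Myh3 and Myog, averaged 2.85, 1.38, 0.378 and 0.351 CPM there. These marker levels are at odds with the label HL-1, and the identity of the cells was not tested. The label is used here only as a name. Across all genes, 1871 of 11658 tested were higher with phillyrin and 1823 lower (edgeR adjusted p under 0.05), and 1313 were higher and 2455 lower when libraries were scaled by their size only. Mitochondrially encoded transcripts took 3.18% to 3.30% of counts in OGD/R and 3.49% to 4.27% with phillyrin. Summed levels of 7 fibroblast markers lay at 2281 to 2322 CPM in OGD/R and 1797 to 1950 CPM with phillyrin (3 of the 7 lower, 0 higher, Lum and Tcf21 at 0), and those of 8 skeletal myoblast markers at 1122 to 1141 and 1088 to 1139 CPM (1 higher, 3 lower). Macrophage and endothelial markers summed to at most 4.27 and 1.35 CPM in any library. The part of these markers in the results below was not tested.

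Most of the 37 genes were higher with phillyrin. By edgeR's quasi-likelihood test, 30 rose, against 16.0% of all genes tested, 3 fell, against 15.6%, and 4 were not called. Because the 37 were chosen with earlier results of these data known, this contrast is a description and not an independent result. The median log2 fold change (phillyrin minus OGD/R) was 0.34 for the 37 genes and -0.01 for all genes tested. Rises of at least 1.25-fold were called in 19 of the 37 and in 4.42% of all genes, and rises of at least 1.5-fold in 5 and in 1.25%. The CPM values of the 2 groups did not overlap for 35 of the 37, 32 higher and 3 lower, where 43.1% of all genes tested did not overlap in either direction, 21.5% with higher and 21.6% with lower values.

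As a share of all counts, the 37 genes summed to 0.784%, 0.790% and 0.798% in OGD/R and to 1.00%, 0.970% and 0.992% with phillyrin. All 3 phillyrin libraries thus lay above all 3 OGD/R libraries. Phillyrin replicate 2 was the lowest of its group for 25 of the 37 genes. Replicates lay close together, with a median SD of log2 CPM of 0.0421 in OGD/R and 0.0492 with phillyrin for these genes, beside 0.0677 and 0.0864 for all genes tested. The genes tested include ones with far fewer counts than any of the 37, and the sets were not matched for level. In a bulk sample, more cells in mitosis and more transcript per cell cannot be told apart.

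**Figure D1:**
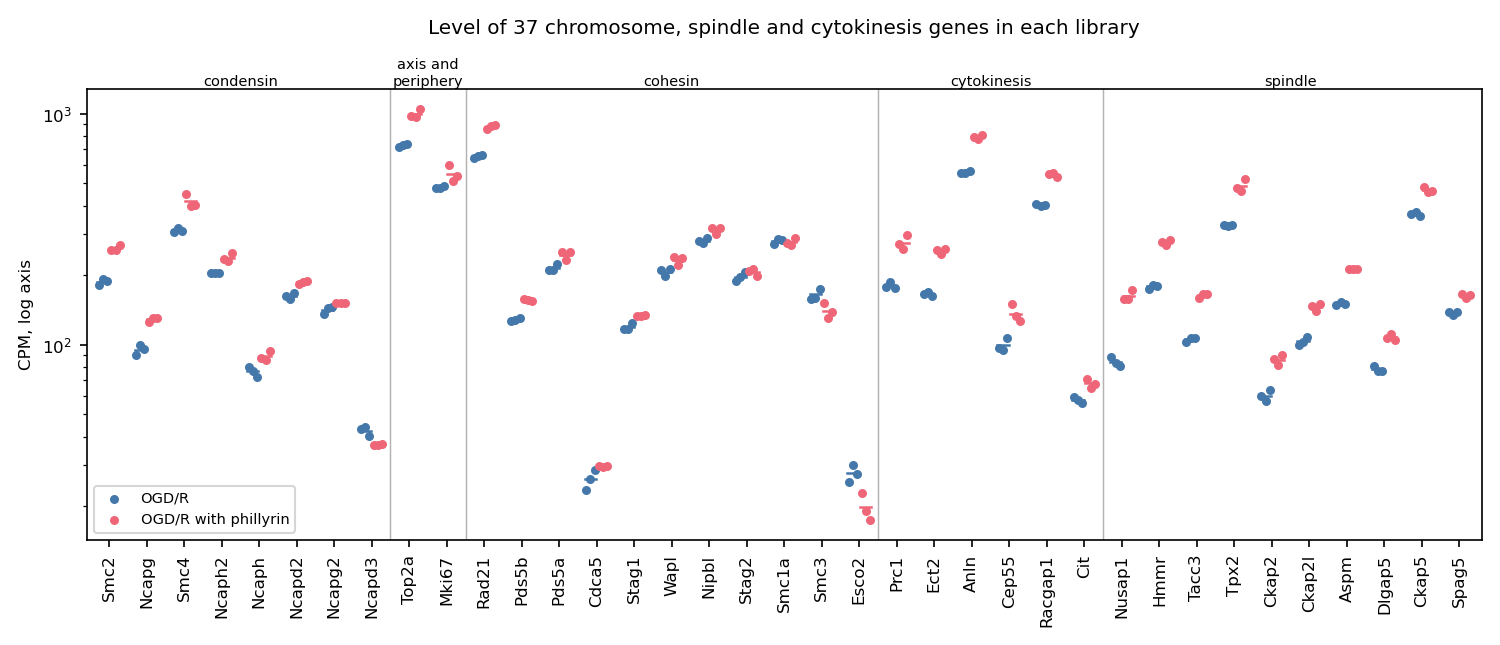
CPM of each of the 37 genes on a log axis, with 1 point per library (blue, OGD/R; red, OGD/R with phillyrin) and a short line at each group mean. The red points lie above the blue ones in 32 genes and below them in 3, and the groups overlap for Smc1a and Stag2.

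The size of the change differed between the 5 sub-lists. All 10 spindle genes and all 6 cytokinesis genes rose, with median log2 fold changes of 0.50 and 0.48. Both Top2a and Mki67 rose. In condensin, 6 of 8 genes were called higher and 1 lower (median 0.22), and in cohesin, 6 of 11 were called higher and 2 lower (median 0.17). Over all genes tested, 16.0% were called higher and 15.6% lower. The counts of lower genes in condensin and cohesin lie near the latter share.

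**Figure D2:**
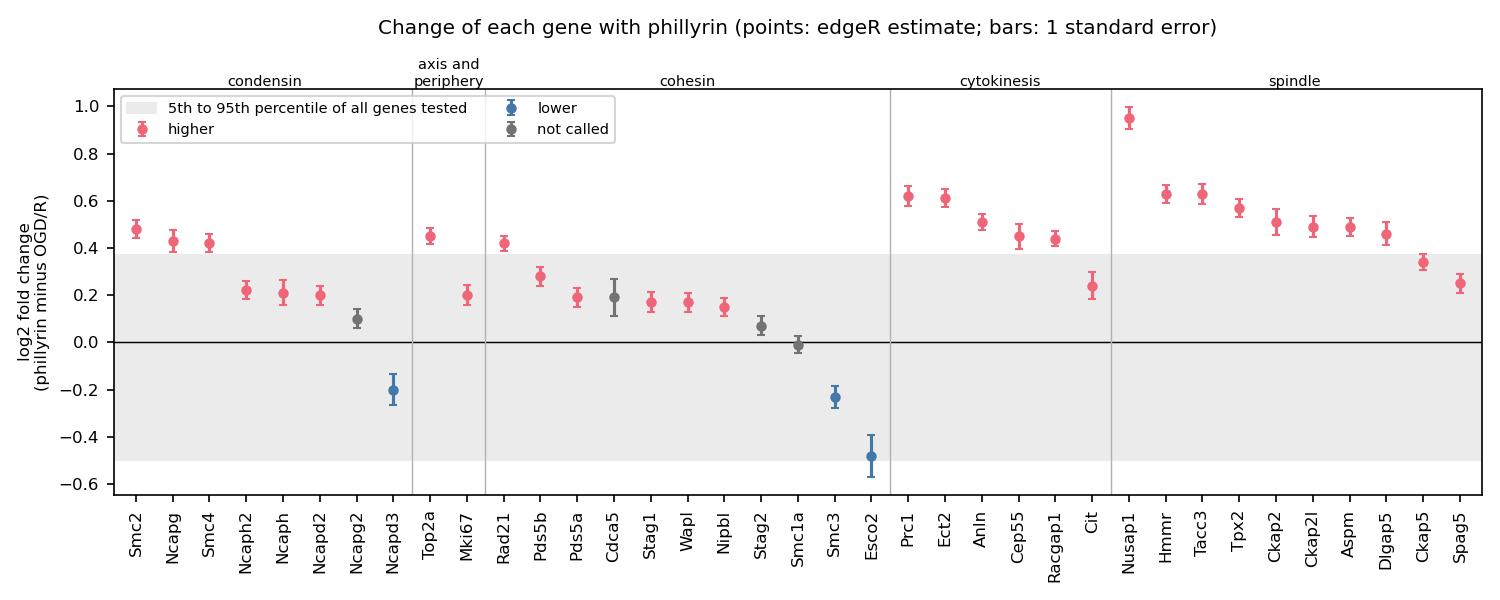
Log2 fold change of each gene with phillyrin relative to OGD/R, ordered within each sub-list, with bars of 1 standard error. The grey band spans the 5th to 95th percentile of all genes tested, from -0.50 to 0.37, and points above it are most frequent among spindle and cytokinesis genes.

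Promoter sequences were read from RefSeq (build GRCm38.p6), which gave 34 promoters for 30 of the 37 genes, each running from 250 bases before to 50 bases after an annotated start. The motifs searched on both strands were the CHR as TTTGAA or TTTAAA, the CCAAT box as CCAAT and an E2F core as GGCGGGA, and no matches of different motifs overlapped. Printed below are the 250 bases before the start, 5′ to 3′ on the gene's strand, with matches in capitals. Prc1, Top2a, Ckap2l and Ncapg are shown because they rose and hold a CHR match there, Nusap1 because it rose most, and Smc3 because it fell. Of the matched genes, 13 of 25 that rose hold a CHR match in these bases. So does 1 of the 2 that fell, Ncapd3, which is not shown.
Prc1 (chr7:80294226-80294475, plus strand): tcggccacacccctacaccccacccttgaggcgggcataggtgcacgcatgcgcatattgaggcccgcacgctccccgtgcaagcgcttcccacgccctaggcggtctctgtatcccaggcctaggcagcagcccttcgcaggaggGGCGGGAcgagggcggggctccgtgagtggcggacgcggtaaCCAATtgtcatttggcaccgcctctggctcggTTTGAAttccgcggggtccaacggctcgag
Top2a (chr11:99024190-99024439, minus strand): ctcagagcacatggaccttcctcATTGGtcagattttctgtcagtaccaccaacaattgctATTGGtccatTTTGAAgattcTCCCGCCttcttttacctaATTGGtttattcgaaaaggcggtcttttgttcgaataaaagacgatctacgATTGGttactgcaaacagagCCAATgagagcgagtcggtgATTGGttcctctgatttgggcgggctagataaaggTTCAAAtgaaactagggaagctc
Ckap2l (chr2:129297213-129297462, minus strand): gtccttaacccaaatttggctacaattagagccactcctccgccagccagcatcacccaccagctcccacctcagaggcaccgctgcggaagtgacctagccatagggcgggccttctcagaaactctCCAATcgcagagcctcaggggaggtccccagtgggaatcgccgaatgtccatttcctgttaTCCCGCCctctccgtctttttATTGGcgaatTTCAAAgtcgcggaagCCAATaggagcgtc
Ncapg (chr5:45669675-45669924, plus strand): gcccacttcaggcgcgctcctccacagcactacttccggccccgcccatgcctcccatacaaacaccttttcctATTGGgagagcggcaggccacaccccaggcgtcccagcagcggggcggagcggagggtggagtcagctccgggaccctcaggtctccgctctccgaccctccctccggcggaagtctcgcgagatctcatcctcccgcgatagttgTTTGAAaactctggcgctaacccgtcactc
Nusap1 (chr2:119618048-119618297, plus strand): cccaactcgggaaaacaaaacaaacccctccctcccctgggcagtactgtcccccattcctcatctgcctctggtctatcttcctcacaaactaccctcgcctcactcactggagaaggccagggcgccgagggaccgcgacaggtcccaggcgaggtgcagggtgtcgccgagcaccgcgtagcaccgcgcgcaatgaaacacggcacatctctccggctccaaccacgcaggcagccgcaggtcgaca
Smc3 (chr19:53600146-53600395, plus strand): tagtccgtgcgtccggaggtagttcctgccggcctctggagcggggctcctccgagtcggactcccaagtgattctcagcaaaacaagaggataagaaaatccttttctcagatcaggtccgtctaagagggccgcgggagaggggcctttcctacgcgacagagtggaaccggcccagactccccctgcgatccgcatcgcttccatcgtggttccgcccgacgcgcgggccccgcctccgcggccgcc
The CHR match began 30 bases before the start in Ckap2l, Ncapg and the later of the 2 annotated starts of Prc1, shown here, and matches began 23 and 179 bases before it in Top2a. The Top2a stretch holds 6 CCAAT boxes on either strand. The windows of Nusap1 and Smc3 hold none of the 3 motifs, so the gene with the largest rise and one that fell are alike in this respect.

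Over the whole 300-base window, 20 of the 30 genes had a CHR match (66.7%, exact 95% binomial interval 47.2% to 82.7%), while 27.6% of all 32851 promoters in the table did. A CCAAT box was present in 18 genes (60.0%, against 37.4% of all promoters), an E2F core in 12 (40.0%, against 11.3%), and CHR and CCAAT together in 15 (50.0%, against 10.7%). Genes with 2 annotated starts were counted once, which favours a match, and by promoter 23 of 34 held a CHR. A CHR match was found in 17 of the 25 matched genes that rose, in 1 of the 2 that fell and in 2 of the 3 that were not called. CHR and CCAAT occurred together in 15 of the 25 that rose and in 0 of the other 5. These groups are too small to compare, and a match of letters does not show that a factor binds. The 37 genes were chosen for their part in mitosis, so a high CHR share was partly fixed in advance and is a description only. All promoters served as the comparison, whether or not their genes were tested here.

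Spindle genes showed the widest changes. Nusap1 (ENSMUSG00000027306, GRCm39 chromosome 2, 119448779 to 119481725), a nucleolar and spindle protein that bundles microtubules around chromosomes, stood at 88.2, 82.9 and 80.8 CPM in the OGD/R libraries and 158, 157 and 172 CPM with phillyrin. Every phillyrin library was far above the highest OGD/R library. The means were 84.0 ± 3.84 and 162 ± 8.58 CPM (SD, n = 3 each), with a log2 fold change of 0.95 (SE 0.05 and adjusted p = 2.64e-18 by edgeR). Oip5 overlaps Nusap1 on the opposite strand by 172 bases and took 5.40% as many counts as Nusap1, and the strand setting of the counting is not given in the sources used here.

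Tpx2 (ENSMUSG00000027469, chromosome 2, 152689884 to 152737241), the Ran-regulated factor that starts microtubule growth near chromosomes and activates Aurora A, stood at 329, 326 and 329 CPM in OGD/R and 477, 465 and 522 CPM with phillyrin (log2 fold change 0.57 with SE 0.04, adjusted p = 6.32e-15 by edgeR). The OGD/R libraries were almost equal, and phillyrin replicate 3 was the highest. Hmmr (ENSMUSG00000020330, chromosome 11, 40592222 to 40624249), a spindle pole protein that works with Tpx2, stood at 175, 182 and 180 CPM and at 278, 270 and 283 CPM. The gap between its groups was wider than the range within either one, and its log2 fold change was 0.63 (SE 0.04 and adjusted p = 5.99e-16 by edgeR).

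Tacc3 and Ckap5 encode partners, since TACC3 carries the microtubule polymerase CKAP5 (ch-TOG) onto spindle fibres. Tacc3 (ENSMUSG00000037313, chromosome 5, 33815472 to 33836339) stood at 103, 107 and 107 CPM in OGD/R and 160, 165 and 166 CPM with phillyrin (log2 fold change 0.63 with SE 0.04, adjusted p = 1.12e-14 by edgeR). Ckap5 (ENSMUSG00000040549, chromosome 2, 91357107 to 91451009) stood at 368, 376 and 361 CPM and at 481, 456 and 461 CPM (log2 fold change 0.34 with SE 0.03, adjusted p = 5.40e-10 by edgeR). Both rose without overlap between groups, Tacc3 by 54.7% and Ckap5 by 26.6%. Tmem129 overlaps Tacc3 on the opposite strand by 289 bases and took 17.3% as many counts.

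Aspm, the spindle pole protein whose human counterpart is mutated in microcephaly, stood at 149, 153 and 150 CPM in OGD/R. With phillyrin it stood at 212, 212 and 213 CPM, the steadiest of the 10 spindle genes in that group only. It rose by 40.5%. The microtubule-associated Ckap2 and its relative Ckap2l rose by 42.8% and 40.5%, and Dlgap5 (HURP), which stabilises kinetochore fibres, by 37.5%. Spag5 (astrin), which acts at kinetochores and spindle poles, rose least of the 10, from 137 ± 1.55 to 164 ± 3.03 CPM (SD, n = 3 each, and a log2 fold change of 0.25 with SE 0.04, adjusted p = 4.51e-06 by edgeR). The ratio of Nusap1 to Spag5 per gene length, a pair taken as the extremes after the values were seen, went from 0.813 to 0.883 in OGD/R to 1.32 to 1.45 with phillyrin.

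All 6 cytokinesis genes rose, and they are given from the midzone to the ring and the midbody. Prc1 (ENSMUSG00000038943, chromosome 7, 79944198 to 79966007), which crosslinks the antiparallel microtubules of the midzone, stood at 177, 186 and 176 CPM in OGD/R and 272, 259 and 298 CPM with phillyrin (log2 fold change 0.62 with SE 0.04, adjusted p = 3.23e-14 by edgeR). Its lowest phillyrin library was well above its highest OGD/R library. Rccd1 overlaps it on the opposite strand and took 3.47% as many counts.

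Racgap1 and Ect2 act in sequence at the midzone, where the centralspindlin subunit RACGAP1 recruits the RhoA exchange factor ECT2. Ect2 (ENSMUSG00000027699, chromosome 3, 27151371 to 27208027) stood at 166, 169 and 163 CPM in OGD/R and 256, 247 and 259 CPM with phillyrin (log2 fold change 0.61 with SE 0.04, adjusted p = 1.74e-15 by edgeR). Racgap1 (ENSMUSG00000023015, chromosome 15, 99518377 to 99549537) stood at 407, 397 and 404 CPM and at 546, 554 and 534 CPM (log2 fold change 0.44 with SE 0.03, adjusted p = 4.82e-13 by edgeR). In both genes the phillyrin libraries lay together and apart from OGD/R. A processed pseudogene shares 488 bases with Racgap1 at 98.2% identity, and how multiply aligned reads were counted is not given in the sources used here.

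Anln (ENSMUSG00000036777, chromosome 9, 22243308 to 22300484), the anillin scaffold that ties actin, myosin and septins into the contractile ring, was the highest of the 6 per gene length, at 62.3 FPKM in OGD/R beside 57.7 for Racgap1 (FPKM divides the count by gene length and library total). It stood at 554, 551 and 563 CPM in OGD/R and 795, 780 and 806 CPM with phillyrin (log2 fold change 0.51 with SE 0.03, adjusted p = 2.72e-15 by edgeR). The gap between the groups was wider than the range within either one. Cep55, which brings the ESCRT machinery to the midbody, rose from 99.6 ± 6.47 to 136 ± 12.1 CPM, and Cit, the citron kinase of the midbody, from 57.7 ± 1.75 to 68.1 ± 3.13 CPM (SD, n = 3 each). Cit had the smallest change of the 6, with a log2 fold change of 0.24 (SE 0.06 and adjusted p = 0.00112 by edgeR).

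Top2a and Mki67 mark dividing cells but changed by different amounts. Top2a (ENSMUSG00000020914, chromosome 11, 98883769 to 98915015), the topoisomerase that untangles sister DNA on the chromosome axis, stood at 715, 731 and 739 CPM in OGD/R and 980, 965 and 1046 CPM with phillyrin, a rise of 36.9%. Mki67 (ENSMUSG00000031004, chromosome 7, 135291513 to 135318090), Ki-67, which coats mitotic chromosomes and keeps them apart, stood at 476, 475 and 484 CPM and at 602, 509 and 537 CPM, a rise of 14.7% (log2 fold change 0.20 with SE 0.04, adjusted p = 0.000627 by edgeR). Mki67 varied among the phillyrin libraries, with replicate 1 highest, while in OGD/R it was nearly constant. The ratio of Top2a to Mki67 per gene length was 1.68, 1.72 and 1.70 in OGD/R and 1.82, 2.12 and 2.17 with phillyrin, a pair compared after its values were seen.

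Both SMC ATPases of condensin, shared by the 2 complexes, rose. Smc2 (ENSMUSG00000028312, chromosome 4, 52439243 to 52488260) stood at 181, 192 and 188 CPM in OGD/R and 257, 258 and 269 CPM with phillyrin (log2 fold change 0.48 with SE 0.04, adjusted p = 9.42e-13 by edgeR). Smc4 (ENSMUSG00000034349, chromosome 3, 68912071 to 68941956) stood at 308, 320 and 311 CPM and at 451, 400 and 404 CPM (log2 fold change 0.42 with SE 0.04, adjusted p = 8.53e-11 by edgeR). The groups did not overlap for either gene, and phillyrin replicate 1 was the highest for Smc4.

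The 3 subunits particular to condensin I, which reaches chromosomes after the nuclear envelope breaks down, all rose. Ncapg, a HEAT-repeat subunit, stood at 90.5, 99.9 and 95.4 CPM in OGD/R and 125, 131 and 131 CPM with phillyrin (log2 fold change 0.43 with SE 0.05, adjusted p = 1.54e-09 by edgeR). Ncapd2, the other HEAT-repeat subunit, and Ncaph, the kleisin that closes the ring, changed less, by 14.6% and 15.9%. Lcorl overlaps Ncapg on the opposite strand and took 43.5% as many counts, so the level of Ncapg is less certain than those of the other subunits.

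Condensin II, which is nuclear throughout the cycle and begins compaction in prophase, was mixed. Its kleisin Ncaph2 stood at 205, 205 and 204 CPM in OGD/R and 236, 230 and 249 CPM with phillyrin, a rise of 16.5% (edgeR adjusted p = 2.00e-05), and Tymp and Sco2, which overlap it on the opposite strand, had 1 count and 0 counts in all 6 libraries. Ncapg2 stood at 136, 144 and 146 CPM and at 151, 152 and 152 CPM, and was not called (log2 fold change 0.10 with SE 0.04, adjusted p = 0.0746 by edgeR). Ncapd3 (ENSMUSG00000035024, chromosome 9, 26941471 to 27006611) fell, from 43.2, 43.8 and 40.3 CPM to 36.8, 36.7 and 37.2 CPM (log2 fold change -0.20 with SE 0.06, adjusted p = 0.0156 by edgeR). Leaving out OGD/R replicate 1 ended this call (adjusted p = 0.0589 by edgeR), as did leaving out OGD/R replicate 2 (adjusted p = 0.0840 by edgeR).

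Per gene length, the subunits of condensin differed widely in level. On the FPKM scale, which is not scaled by TMM factors, Smc4 stood highest in OGD/R with 61.0 ± 1.22, followed by Ncaph2 with 49.4 ± 0.198 and Smc2 with 34.6 ± 0.905, and Ncapd3 was lowest with 5.46 ± 0.251 (SD, n = 3 each). The mean FPKM of the 3 condensin I subunits over that of the 3 condensin II subunits was 0.847, 0.831 and 0.835 in OGD/R and 0.884, 0.913 and 0.888 with phillyrin. This ratio was higher in each phillyrin library than in any OGD/R library. The means are unweighted, so Ncaph2 counts most in that of condensin II. That of condensin I includes Ncapg, whose level is less certain.

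Cohesin's ring changed unevenly. Rad21 (ENSMUSG00000022314, chromosome 15, 51825636 to 51855143), the kleisin that separase cuts at anaphase, stood at 645, 658 and 662 CPM in OGD/R and 855, 888 and 890 CPM with phillyrin (log2 fold change 0.42 with SE 0.03, adjusted p = 5.91e-13 by edgeR). Its partner ATPase Smc3 (ENSMUSG00000024974, chromosome 19, 53588829 to 53634264) fell, from 158, 160 and 175 CPM to 151, 131 and 139 CPM (log2 fold change -0.23 with SE 0.05, adjusted p = 0.000192 by edgeR). Smc1a, the other ATPase of the ring, stood at 273, 286 and 285 CPM and at 276, 270 and 290 CPM, so the groups overlapped and it was not called (log2 fold change -0.01 with SE 0.04, adjusted p = 0.816 by edgeR).

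Per gene length Rad21 was already the most abundant of the 3 in OGD/R, at 157 ± 1.79 FPKM beside 49.4 ± 1.17 for Smc1a and 30.1 ± 1.67 for Smc3 (SD, n = 3 each). The ratio of Rad21 to Smc3 per gene length was 5.33, 5.39 and 4.94 in OGD/R and 7.43, 8.86 and 8.37 with phillyrin, and that of Rad21 to Smc1a was 3.22, 3.14 and 3.17 and then 4.22, 4.48 and 4.18. Both ratios, compared after the values were seen, were higher in every phillyrin library. Ratios of transcripts give no ratio of proteins.

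**Figure D3:**
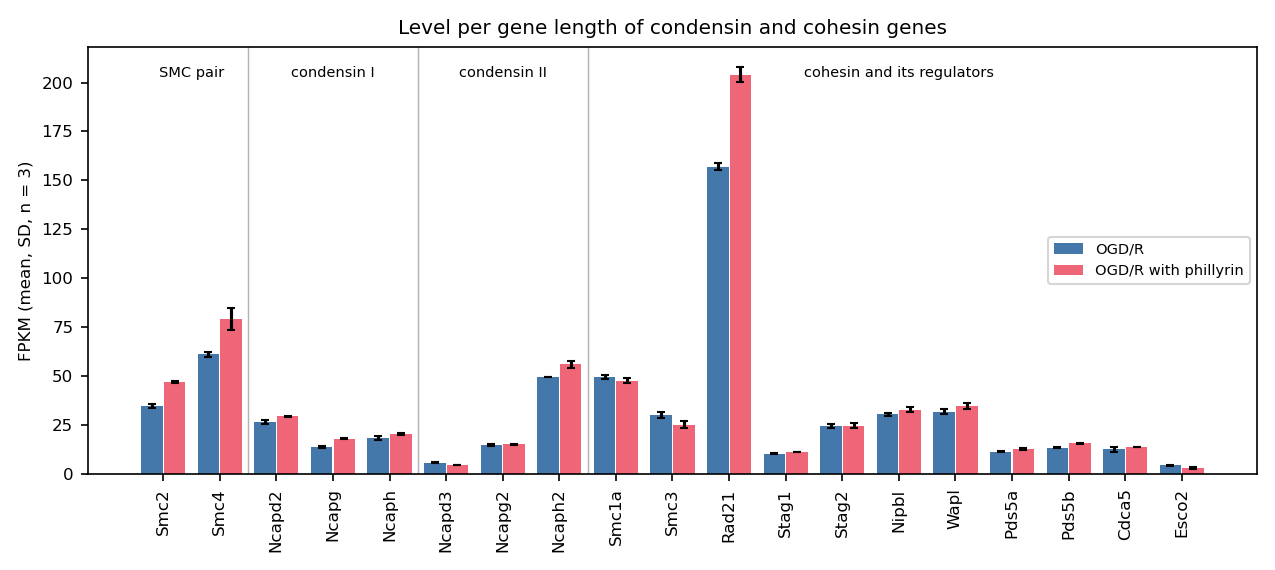
Mean FPKM of condensin and cohesin genes in OGD/R (blue) and OGD/R with phillyrin (red), with bars of 1 SD over 3 libraries. Rad21 is the tallest pair, at 157 and 204 FPKM, while Ncapd3, Smc3 and Esco2 have lower red bars, as does Smc1a, at 49.4 and 47.6 FPKM, which was not called.

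Of the 2 alternative HEAT-repeat subunits of cohesin, 1 was called. Stag1 rose by 12.2% (log2 fold change 0.17 with SE 0.04, adjusted p = 0.00258 by edgeR). Stag2 stood at 188, 197 and 206 CPM in OGD/R and 209, 213 and 199 CPM with phillyrin, so the groups overlapped, and it was not called (log2 fold change 0.07, edgeR adjusted p = 0.163) but passed without phillyrin replicate 3 (edgeR adjusted p = 0.0420). Without OGD/R replicate 1 its log2 fold change was 0.043 (edgeR adjusted p = 0.547). Stag2 was the more abundant per gene length, at 24.2 FPKM beside 10.3 for Stag1 in OGD/R.

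Genes that load and release cohesin rose slightly. Nipbl, the loader and motor cofactor, rose by 11.3%, and Wapl, which opens the ring, by 12.7%. Pds5a and Pds5b, adaptors that serve both release and protection, rose by 14.4% and 21.1%. These 4 changes lay between 0.15 and 0.28 on the log2 scale, each with an SE of 0.04.

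Of the 2 genes that secure cohesion in S phase, 1 fell and 1 was not called. Esco2 (ENSMUSG00000022034, chromosome 14, 66056487 to 66071443), the acetyltransferase that locks cohesin by modifying SMC3 during replication, stood at 25.5, 30.0 and 27.6 CPM in OGD/R and 22.8, 19.1 and 17.5 CPM with phillyrin. All 3 phillyrin libraries were below all 3 OGD/R libraries, and Esco2 fell by 0.48 on the log2 scale (SE 0.09 and adjusted p = 4.89e-05 by edgeR), the largest decrease among the 37 genes. Cdca5 (sororin), which protects acetylated cohesin from WAPL, stood at 23.4, 26.2 and 28.6 CPM and at 29.9, 29.5 and 29.7 CPM. It was not called (log2 fold change 0.19 with SE 0.08, adjusted p = 0.0650 by edgeR) but passed without OGD/R replicate 3 (edgeR adjusted p = 0.0273). Without OGD/R replicate 1 its log2 fold change was 0.115 (edgeR adjusted p = 0.350).

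S phase transcripts were lower in the same libraries. Among 16 replication and G1/S genes, 14 were called lower and 0 higher, beside 15.6% lower and 16.0% higher over all genes tested. These genes were also chosen with earlier results of these data known, and their median log2 fold change was -0.52. Their summed level lay at 1382 to 1406 CPM in OGD/R and 964 to 1049 CPM with phillyrin, in the opposite direction to that of the 37 genes, which summed to 7709 to 7873 CPM and 9802 to 10189 CPM. The part of cell cycle position in the results was not tested.

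Ratios between 14 pairs of related genes or partners were compared within libraries, where scaling factors cancel. With 3 libraries against 3, the exact two-sided permutation test cannot give a p below 0.1, which 8 pairs reached (adjusted p = 0.175 over the 14 pairs), and these are the pairs whose groups did not overlap. Tacc3 over its relative Tacc1 had the largest difference, 0.49 on the log2 scale, with ratios per gene length of 2.96, 2.93 and 3.16 in OGD/R and 4.24, 4.22 and 4.28 with phillyrin. Tacc1 itself rose by 9.77%.

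Condensin I over condensin II differed by pair of subunits. Ncapd2 over Ncapd3 was higher with phillyrin by 0.40 and Ncapg over Ncapg2 by 0.34 (exact permutation p = 0.1 each), while Ncaph over Ncaph2 differed by -0.00 (exact permutation p = 0.9). Top2a over Top2b, the isoform that does not depend on the cell cycle, was higher by 0.38, with ratios of 3.46, 3.55 and 3.56 and then 4.48, 4.52 and 4.79. Tpx2 over Ckap5 was higher by 0.23 and Smc1a over Smc3 by 0.22. Esco2 over Esco1, its relative that acts throughout the cycle, was lower, by a log2 difference of -0.33, and Pds5a over Pds5b by -0.08 (exact permutation p = 0.1 each).

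The other pairs had groups that overlapped. Smc2 over Smc4, Stag1 over Stag2 and Racgap1 over its centralspindlin partner Kif23 differed by 0.07, 0.09 and 0.06 on the log2 scale, and Ckap2 over Ckap2l and Cdca5 over Wapl by 0.02 each. The smallest exact permutation p among them was 0.2.

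**Figure D4:**
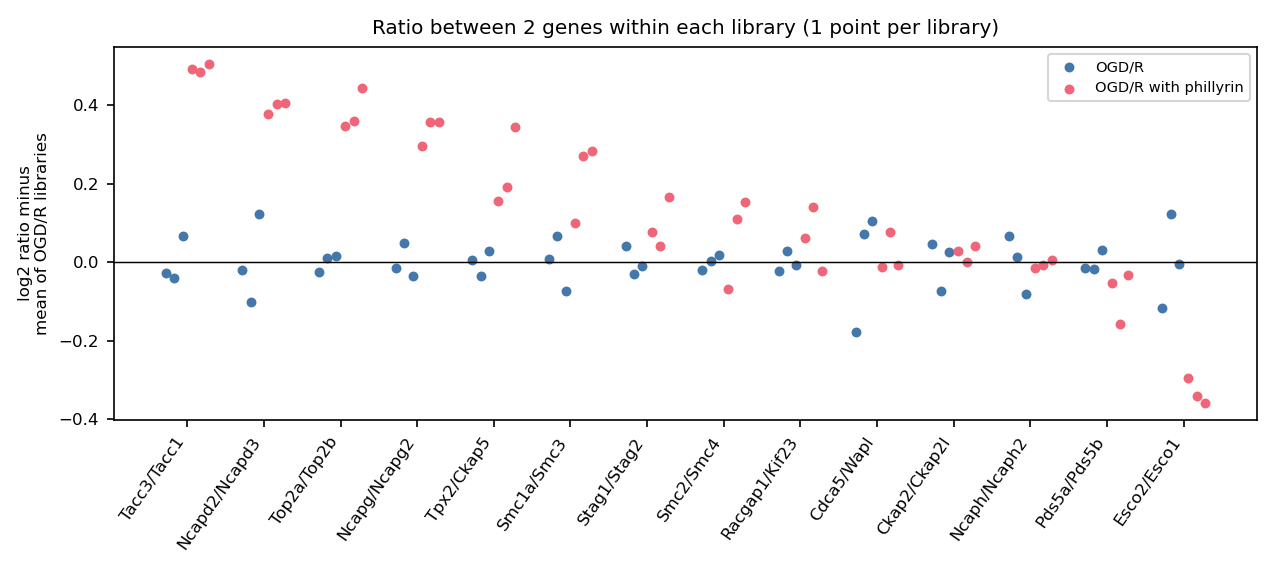
Log2 ratio of the levels per gene length of 2 genes in each library, less the mean of the OGD/R libraries (blue, OGD/R; red, OGD/R with phillyrin). The red points of Tacc3/Tacc1, Ncapd2/Ncapd3 and Top2a/Top2b lie above all blue ones, those of Esco2/Esco1 below, and those of Ncaph/Ncaph2 among them.

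Beyond the 37 genes, 108 other genes of the same machinery were listed in 8 groups. Among the 104 with enough counts, 35 were called higher and 11 lower (median log2 fold change 0.06), beside 16.0% higher and 15.6% lower over all genes tested. The other cytokinesis genes had 12 of 20 higher and 2 lower, led by the mitotic kinase gene Plk1 (log2 fold change 0.61, SE 0.05), the chromosomal passenger gene Cdca8 (0.54, SE 0.05) and the midzone kinesin gene Kif20a (0.40, SE 0.04), each rising. Among other spindle regulators 9 of 15 rose and 3 fell. Knstrn, a partner of astrin, had a log2 fold change of 0.38, Gtse1, which stabilises spindle microtubules, of 0.35, and the plus-end protein gene Mapre1 of 0.21.

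Cohesin's other partners had 3 of 7 tested genes higher and 0 lower. These were Pttg1 (securin, the inhibitor of separase, log2 fold change 0.50), Sgo1 (shugoshin, which guards centromeric cohesin, 0.34) and Hdac8 (the SMC3 deacetylase, 0.60). The 4 not tested, named after their values were seen, were the meiotic subunits Smc1b, Stag3, Rec8 and Rad21l, each below 0.5 CPM in every library. In the topoisomerase group 2 of 6 rose, Top1 (log2 fold change 0.30) and the chromokinesin gene Kif4 (0.34), and Top3b was at -0.16 and not called.

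In the SMC5/SMC6 complex, which acts in DNA repair, 1 of 9 rose, Smc5 (log2 fold change 0.12), and 1 fell, Slf1 (-0.21), with Eid3 at 0.36 and not called. Of 20 genes for microtubule nucleation by the gamma-tubulin ring and augmin, 4 rose and 2 fell, with Mzt1 (0.35) and Haus6 (0.24) higher and gamma-tubulin itself, Tubg1 (-0.33), lower. These counts lie near the shares over all genes tested, 16.0% higher and 15.6% lower. Of 16 genes for abscission by the ESCRT machinery and its partners, 1 rose, the partner gene Spast (0.21), and 1 fell, Chmp6 (-0.26). Chmp3 was at 0.11 and not called.

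Of 11 genes of the complexes that control late cell cycle promoters, 3 were called higher and 2 lower, where 16.0% and 15.6% of all genes tested were. Lin54, the subunit that contacts the CHR, rose from 39.7 to 55.2 CPM (log2 fold change 0.47 with SE 0.06, adjusted p = 3.01e-07 by edgeR), and Lin9 by a log2 fold change of 0.32. Mybl2 (B-MYB), whose own transcription peaks at G1/S, fell from 46.6 to 33.4 CPM (log2 fold change -0.48 with SE 0.07, adjusted p = 8.72e-07 by edgeR). Foxm1, named after its value was seen, rose by a log2 fold change of 0.18.

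**Figure D5:**
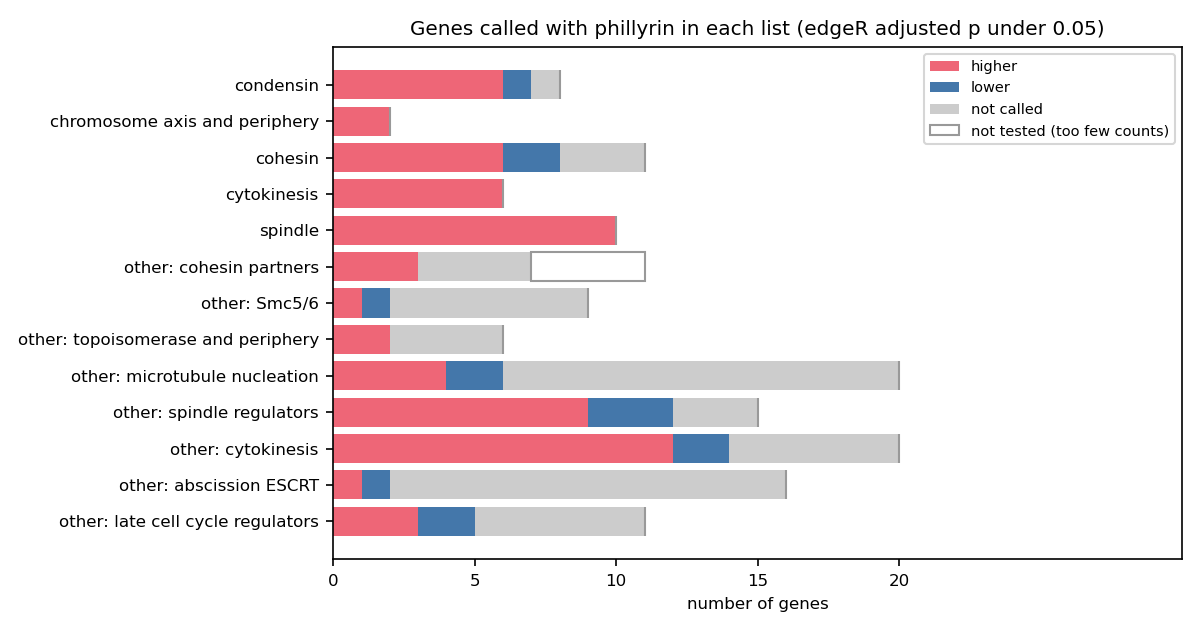
Number of genes called higher (red), called lower (blue), not called (grey) and with too few counts to test (white) in the 5 sub-lists of the 37 genes and in the 8 groups of other genes. The spindle and cytokinesis bars are wholly red, and the bars for abscission, SMC5/SMC6 and microtubule nucleation are mostly grey.

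By the annotation terms in the deposited table, 25 of the 37 genes carry the term cell division, as do 2.87% of the genes tested. A high share was fixed in advance, since the genes were chosen for their part in mitosis. The 37 genes lie on 15 chromosomes of GRCm39 in the table.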

How the data were processed

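Per the labels' protocols, poly(A) RNA was read as pairs of 150 bases. Per the submitters' processing notes, build GRCm39 was used with DESeq2 1.34.0, featureCounts 2.0.3, Trimmomatic 0.39 and HISAT2 2.2.1. No role or counting setting is given for them in the sources used here. For every gene the authors deposited a raw count and an FPKM in each library, per the file headers. The deposited FPKM equalled the count over gene length and library total, to a relative difference of at most 2.43e-07. Columns were assigned by sample title.

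Genes were filtered with filterByExpr, scaled with TMM and tested with edgeR 4.0.16's quasi-likelihood test (limma 3.58.1, R 4.3.3), two-sided, with Benjamini-Hochberg adjustment over 11658 genes and a threshold of 0.05. All 37 genes passed the filter. An SE is the log2 fold change over the square root of its F statistic. The labels do not say that libraries came from separate cultures, so p-values measure the spread between libraries, which may be technical. Within each group, no 2 libraries agreed within sampling noise on average over genes, with a mean chi-square per gene of 2.037 to 5.308. Libraries of different groups were not compared in this way. The biological coefficient of variation was 4.05%. On simulated counts of 11567 genes for this comparison, the test recovered 78.0% of changes of 1.25-fold and 89.8% of 1.5-fold, with 9 false among 185 calls. The simulation drew its noise from the dispersions of these data and changed far fewer genes than the 3694 called in the real counts. Its rates therefore need not hold for the real comparison.

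The naming rule took all 37 genes, the partners in the 14 pairs, and from each group of other genes the 3 with the smallest p-value. The members and lists were chosen with earlier results of these data known. Ratios of pairs used counts plus 0.5. The binomial interval of the promoter matches covers only the number of genes matched. Alternatives were the replicate number as a block, leaving out each library, limma-voom, DESeq2 1.42.0, scaling by RLE factors or by library size, and testing without a filter or above a mean of 1 CPM. Shared sequence was searched in GENCODE M21 transcripts with blastn (at least 200 bases at 97% identity), and 6 of the 37 genes shared such a stretch with another gene.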

Additional observations from a re-analysis of the deposited data

How the results depend on the processing

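Of the 37 genes, 33 kept their direction and their side of the threshold under all 13 alternatives, and Ncapd3, Cdca5, Stag2 and Smc1a did not. All 4 exceptions came from leaving out a library, and none from another scaling, test, filter or the block. Across the alternatives 30 to 31 of the 37 genes were higher and 2 to 3 lower. With 1 library left out, the condensin genes called lower numbered 0 to 1. Smc1a, at a log2 fold change of -0.01, ranged from -0.038 to 0.014 over the omissions, at 0.001 without phillyrin replicate 1 and 0.014 without phillyrin replicate 2. Over the omissions the log2 difference of Cdca5 over Wapl ranged from -0.069 to 0.072, that of Ckap2 over Ckap2l from -0.013 to 0.047, and that of Ncaph over Ncaph2 from -0.046 to 0.029. With the replicate number as a block, 30 of the 37 genes were higher and 3 lower, and 1867 genes in all were higher and 1842 lower. No pairing by number was evident, since same-numbered libraries deviated from their group means with correlations of 0.00278, 0.00561 and 0.00322. With so few libraries a group, this check cannot exclude pairing. Each library correlated best with its own number, but among genes of at least 50 CPM, a check added after seeing the data, these correlations were -0.02, -0.09 and 0.07 and this no longer held. With only the 250 bases before the start, 53.3% of the matched genes held a CHR and 40.0% held CHR and CCAAT. Esco2 and Cdca5 had the fewest counts of the 37, and their estimates carry the largest standard errors, 0.09 and 0.08.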
